A study of Mus musculus with 9 samples.

Results

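The transcripts described here are those of 7 Fc receptor genes, Fcgr1, Fcgr2b, Fcgr3, Fcgr4, Fcer1a, Fcer1g and Fcgrt, taken by gene name from the 57238 entries of an RNA-seq table of mouse bone marrow-derived dendritic cells (BMDCs). All 7 passed the filter on low counts, which left 15028 genes for testing. The cells came from wildtype C57BL/6 mice and had been grown from bone marrow with GM-CSF at 20 ng/ml, for 6 days according to the labels. Each of 3 groups had 3 libraries, and CTR cells received no exosomes. NE-treated cells received exosomes of normal cells, which the paper's text gives as the NIH 3T3 fibroblast line. TDE-treated cells received exosomes of tumor cells, whose line the labels do not name. For exosomes not otherwise specified, the paper's methods give TC-1 or MC38 tumor cells as the source. Both exosome treatments lasted 24 h. Whether the libraries of a group came from separate mice or cultures is not stated, so the p-values measure the spread between these libraries, which may be technical.

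Fc receptors bind the constant part of antibodies and so tie antibody-coated particles to the cell that carries the receptor. The alpha chains encoded by Fcgr1, Fcgr3 and Fcgr4 bind IgG and activate the cell through a shared signalling subunit, the Fc receptor gamma chain encoded by Fcer1g, whose tail holds an immunoreceptor tyrosine-based activation motif (ITAM). Fcgr2b encodes the inhibitory IgG receptor, with an inhibitory motif (ITIM) in its own tail, and in dendritic cells the balance of the activating and inhibitory receptors is known to set the response to immune complexes. Fcer1a encodes the IgE-binding chain of the high-affinity IgE receptor of mast cells and basophils, which also uses the gamma chain, and Fcgrt encodes the neonatal Fc receptor, which pairs with B2m and returns IgG and albumin to the cell surface.

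The tails that separate the signalling chain from the inhibitory receptor are given first as coding sequence, 5′ to 3′, from GENCODE vM21 transcripts on GRCm38. Capitals mark the codons of the tyrosines and of the leucines or isoleucine that define each motif. The gamma chain motif of transcript Fcer1g-201 spans chr1:171229889-171230072 on the minus strand and is 45 bases long over 2 exons. The inhibitory motif of transcript Fcgr2b-204 lies at chr1:170961071-170961088 on the minus strand, within 1 exon.
Fcer1g ITAM: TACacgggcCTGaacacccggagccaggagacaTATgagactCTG
Fcgr2b ITIM: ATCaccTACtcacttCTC

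Of the 7 members 5 lie on chromosome 1 of GRCm38, Fcgr2b at chr1:170958617-170976547 (minus strand), Fcgr4 at chr1:171018920-171029761 (plus strand), Fcgr3 at chr1:171051174-171064935 (minus strand), Fcer1g at chr1:171229572-171234365 (minus strand) and Fcer1a at chr1:173221284-173227214 (minus strand). Fcgr1 lies at chr3:96282909-96293969 and Fcgrt at chr7:45092990-45103851, both on the minus strand. The genome build of the deposited table is not given in the sources used here, and all 55536 Ensembl identifiers of the table were found in GENCODE vM21. Fcgr2b and Fcgr3 share sequence: 17.9% of the 50-base windows of the Fcgr2b transcript also occurred in another gene's transcript (Fcgr3 or Gm38204), and 12.8% of those of Fcgr3 occurred in Fcgr2b, against 0 windows for the other 5 members. The deposited estimates of both were fractional in all 9 libraries, while those of the other 5 members were whole. Exons of Fcgr2b also overlap the antisense gene Gm38204, and the strand of counting is not stated, so the reads of Fcgr2b and Gm38204 cannot be told apart.

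Libraries held between 17469782 and 21092943 estimated reads on genes. Values below are CPM, the reads of a gene scaled to a common library size with TMM, a normalization between libraries, and 3 reads, taken as the floor of detection, equalled 0.135 to 0.19 CPM. Library CTR_1 (control replicate 1) stood apart, with correlations of 0.853 to 0.887 with the other CTR libraries against 0.941 or more between any pair of the other 8 libraries, and a TMM factor of 0.751 against 0.999 to 1.07. Results that rest on CTR_1 are therefore given with and without it. Markers of the labelled cell type were present, since all 10 dendritic cell markers were detected, among them Itgax (CD11c) at 107 to 178 CPM and Flt3 at 11.6 to 16.0 CPM. All 10 macrophage and all 11 neutrophil markers were detected as well, so detection does not give the share of each cell type. In bulk RNA fewer cells of a type and less RNA per cell cannot be told apart.

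Between TDE-treated and CTR BMDCs, inhibitory Fcgr2b and activating Fcgr4 rose 2.06-fold and 2.74-fold, and Fcer1a fell to 0.14 of its CTR level. These 3 of the 7 members passed the threshold of 0.05 for the adjusted p (edgeR's quasi-likelihood test, Benjamini-Hochberg adjustment over all tested genes), beside 16.9% of all tested genes, 7.57% higher and 9.34% lower. The median log2 fold change was 0.25 over the 7 members and -0.05 over all tested genes. Without CTR_1, 5 of 7 rose and 1 fell, beside 16.4% and 18.0% of tested genes (34.4% in all), and the added members were Fcgr1, Fcgr3 and Fcer1g. The 6 were also called by limma's voom with sample quality weights, beside 52.5% of tested genes, and the first 3 with the replicate number as a block, beside 8.55%. In 3 of 7 members the TDE and CTR libraries did not overlap, as in 44.0% of all tested genes.

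**Figure D1:**
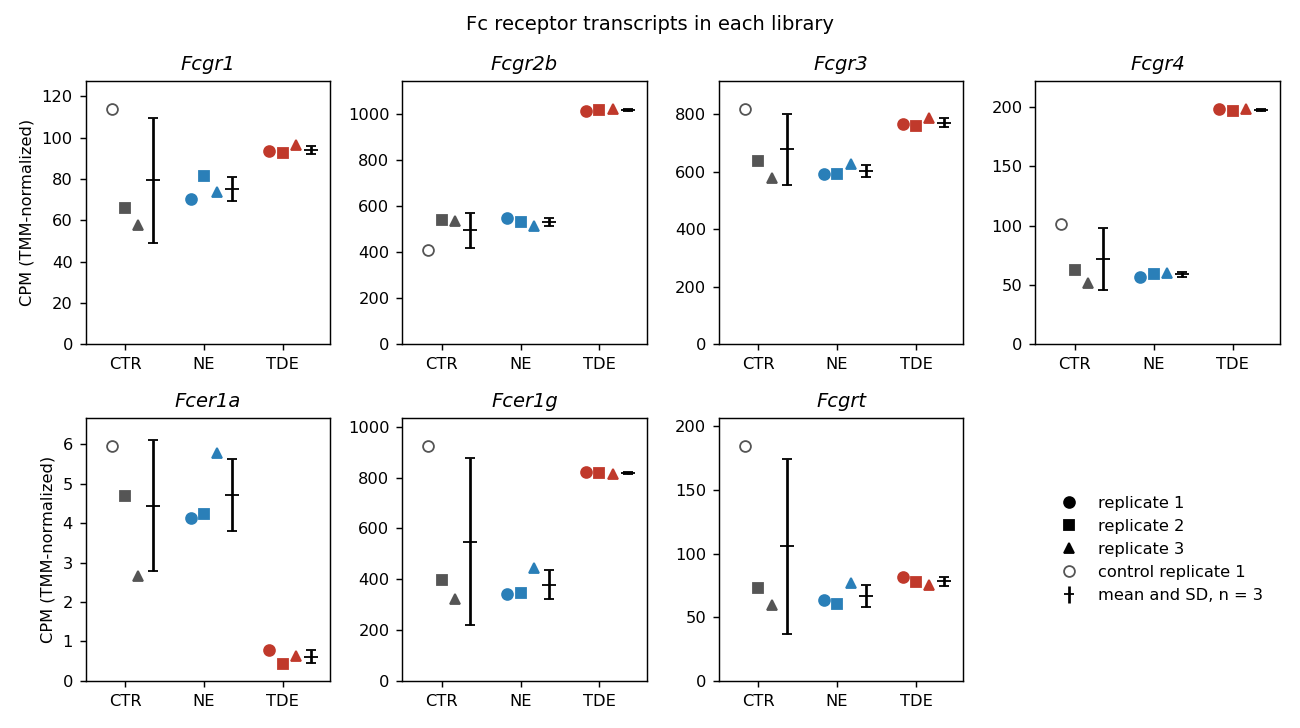
CPM (TMM-normalized) of each of the 7 Fc receptor transcripts in each library, with the mean and SD of each group (n = 3) at its right and control replicate 1 as an open circle. Fcgr2b and Fcgr4 were higher and Fcer1a lower in every TDE library than in any other library, and control replicate 1 was the highest CTR library in all panels but Fcgr2b, where it was the lowest.

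Fcgr1, the high-affinity IgG receptor, was measured at 114, 66.2 and 57.9 CPM in the CTR libraries, at 70.2, 81.7 and 73.7 CPM in the NE libraries and at 93.4, 92.8 and 96.3 CPM in the TDE libraries. CTR_1 was the highest of all 9 and the other 2 CTR libraries the lowest, so CTR and TDE overlapped, while every TDE library lay above every NE library. TDE differed from CTR by a log2 fold change of 0.25 (SE 0.24, 95% interval -0.30 to 0.79, adjusted p = 0.471 by edgeR). Without CTR_1 it was 0.59 (SE 0.09, adjusted p = 0.00129 by edgeR).

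Fcgr3, the low-affinity activating IgG receptor, had 818, 637 and 578 CPM in CTR, 593, 591 and 626 CPM in NE and 765, 758 and 788 CPM in TDE. CTR_1 again lay above all TDE libraries and the other 2 CTR libraries below them. The log2 fold change of TDE against CTR was 0.18 (SE 0.15, adjusted p = 0.411 by edgeR), and 0.33 (SE 0.07, adjusted p = 0.00715 by edgeR) without CTR_1. Against CTR, Fcgr3 was called only without CTR_1 and with voom weights among the alternatives run. The sequence that Fcgr3 shares with Fcgr2b applies to each of these values.

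Fcgr4, an activating receptor for IgG2 subclasses, had 102, 62.6 and 51.7 CPM in CTR, 56.7, 59.5 and 60.1 CPM in NE and 198, 197 and 198 CPM in TDE. Every TDE library lay well above the highest of the other libraries, and the CTR and NE libraries overlapped. The log2 fold change against CTR was 1.46 (SE 0.23, 95% interval 0.92 to 1.99, adjusted p = 0.00501 by edgeR), and 1.78 (adjusted p = 2.71e-06 by edgeR) without CTR_1. Fcgr4 shared no 50-base window with another gene.

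Fcer1g, the gamma chain that these receptors signal through, had 924, 398 and 321 CPM in CTR, 343, 347 and 443 CPM in NE and 823, 818 and 812 CPM in TDE. The TDE libraries lay close together, above all NE libraries and above CTR_2 and CTR_3, and below CTR_1 alone. The log2 fold change against CTR was 0.58 (SE 0.36, 95% interval -0.25 to 1.41, adjusted p = 0.279 by edgeR), and 1.18 (SE 0.13, adjusted p = 0.000206 by edgeR) without CTR_1. CTR_1 also had the highest summed level of the 11 neutrophil markers, 29017 CPM against 7312 to 9664 CPM in the other CTR libraries, and the part of that difference in the level of Fcer1g was not tested.

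Fcgr2b, the inhibitory receptor, had 408, 540 and 536 CPM in CTR, 546, 531 and 514 CPM in NE and 1011, 1016 and 1021 CPM in TDE. The 3 TDE libraries differed by less than 10 CPM and lay above all others, and CTR_1 was the lowest of the 9. Fcgr2b rose against CTR by a log2 fold change of 1.04 (SE 0.15, 95% interval 0.70 to 1.38, adjusted p = 0.00299 by edgeR), and by 0.91 (adjusted p = 1.6e-05 by edgeR) without CTR_1. The sequence it shares with Fcgr3 and its overlap with Gm38204 apply to each of these values.

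Fcer1a, the IgE-binding chain, had the lowest level of the 7, with 94, 104 and 53 reads (5.96, 4.70 and 2.67 CPM) in CTR and 78, 78 and 116 reads (4.14, 4.23 and 5.77 CPM) in NE. Only 14, 8 and 12 reads (0.776, 0.437 and 0.627 CPM) were counted in the TDE libraries, which is above the floor of 3 reads in each. All TDE libraries lay below all others, and the CTR and NE libraries overlapped. The log2 fold change against CTR was -2.84 (SE 0.37, 95% interval -3.70 to -1.99, adjusted p = 0.00209 by edgeR), a level 7.17-fold lower, and -2.59 (adjusted p = 0.000482 by edgeR) without CTR_1.

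Fcgrt, the neonatal Fc receptor, had 185, 73.2 and 59.3 CPM in CTR, 63.4, 60.2 and 76.8 CPM in NE and 81.7, 78.1 and 75.1 CPM in TDE. All groups overlapped, and CTR_1 stood far above the other 8 libraries. The log2 fold change of TDE against CTR was -0.43 (SE 0.38, 95% interval -1.31 to 0.44, adjusted p = 0.436 by edgeR) and turned to 0.23 (adjusted p = 0.192 by edgeR) without CTR_1. B2m, the light chain of this receptor, had 1721 ± 308 CPM in CTR and 1927 ± 52.7 CPM in TDE (SD, n = 3), with a log2 fold change of 0.16 (SE 0.18, adjusted p = 0.526 by edgeR).

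The comparison of TDE with NE, both exosome treatments, used the same TDE libraries, so it is no independent repeat of the comparison with CTR. Fcgr2b rose by 0.94 on the log2 scale (SE 0.15, adjusted p = 0.00432), Fcgr4 by 1.75 (SE 0.24, adjusted p = 0.00215), and Fcer1a fell by 2.93 (SE 0.37, adjusted p = 0.00167), all by edgeR. These 3 of 7 members were called beside 13.9% of all tested genes, 6.73% higher and 7.21% lower, and the libraries of 6 of 7, all but Fcgrt, did not overlap, as in 54.5% of tested genes. Fcer1g differed by 1.11 (SE 0.36, 95% interval 0.28 to 1.95) with an adjusted p of 0.0827 by edgeR, and of 9.52e-05 by edgeR without CTR_1. It was also called by DESeq2 (adjusted p = 0.0231), by edgeR with library totals alone (0.0302) and by edgeR without CTR_3 (0.0418). The differences of Fcgr1 (0.32), Fcgr3 (0.35) and Fcgrt (0.23) had adjusted p-values of 0.472, 0.191 and 0.81 by edgeR. Without CTR_1, 6 of 7 members passed, all but Fcgrt, beside 40.7% of tested genes. The same count of 6 came from a fit to the 6 libraries compared, beside 41.9%, a count of 7 from voom weights, beside 55.3%, and one of 3 with the replicate block, beside 7.82%.

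The comparison of NE with CTR asks whether exosomes of normal cells changed these transcripts. None of the 7 passed the test in edgeR, beside 0.0% of tested genes, and none had an unadjusted p under 0.05, against 3.24% (487) of tested genes. The log2 fold changes ran from -0.66 for Fcgrt (95% interval -1.54 to 0.21) to 0.10 for Fcgr2b (95% interval -0.23 to 0.43), and the libraries of all 7 overlapped, while those of 7.71% of tested genes did not. DESeq2 and limma's voom with sample quality weights also called 0 of the 7, beside 0.0399% and 0.12% of tested genes, as did edgeR without CTR_1, beside 0.0196%. The range rested on CTR_1, since without it Fcgrt was 0.01 and Fcer1g went from -0.54 (95% interval -1.36 to 0.29) to 0.07 (95% interval -0.22 to 0.36). Fcgr1 without CTR_1 was 0.28, with a 95% interval of 0.07 to 0.48 that leaves out 0 and an adjusted p of 1.0 by edgeR.

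**Figure D2:**
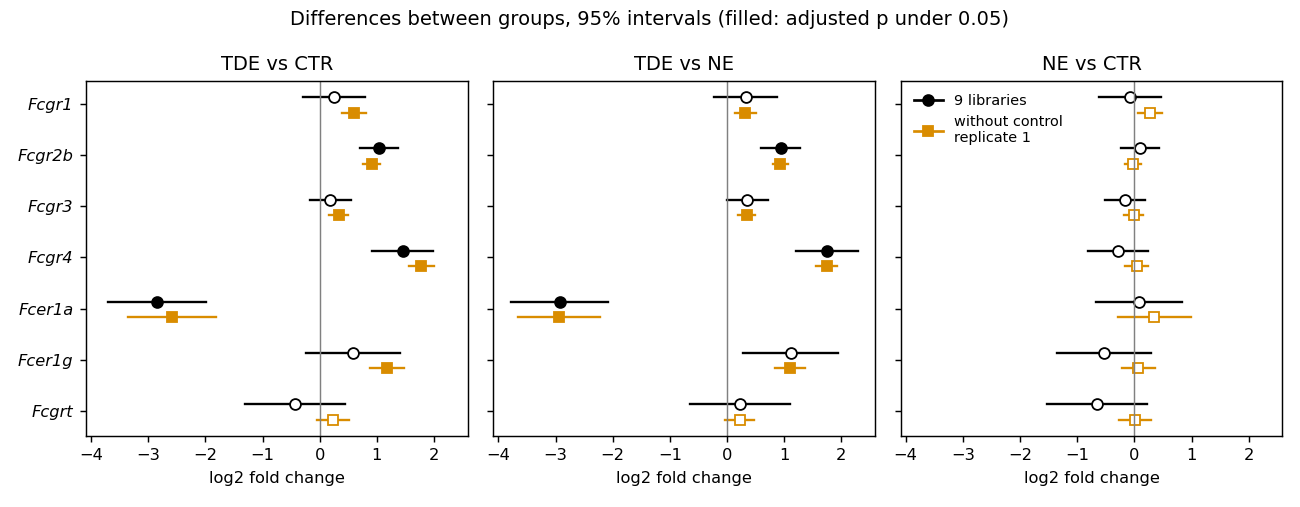
Log2 fold change of the 7 members in each comparison of groups with its 95% interval, from the fit to 9 libraries (black circles) and from the fit without control replicate 1 (orange squares); filled symbols have an adjusted p under 0.05. Fcgr2b, Fcgr4 and Fcer1a are filled in both fits of TDE vs CTR and TDE vs NE, Fcgr1, Fcgr3 and Fcer1g only in the fit without that library, and no member is filled in NE vs CTR.

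Levels of different genes were compared only per length, as CPM per kilobase of the deposited gene length. In CTR the order of the mean levels was Fcer1g (802), Fcgr3 (503), Fcgr2b (313), Fcgrt (66.0), Fcgr4 (57.3), Fcgr1 (30.6) and Fcer1a (4.45). The libraries of Fcer1g and Fcgr3, of Fcgrt and Fcgr4, and of Fcgr4 and Fcgr1 overlapped in CTR, while the remaining neighbours were apart. The place of Fcgrt above Fcgr4 rested on CTR_1 (115 against 81.0). Fcgrt was below Fcgr4 in CTR_2 (45.7 against 49.9) and in CTR_3 (37.0 against 41.1). In NE the order was Fcer1g (553), Fcgr3 (448), Fcgr2b (336), Fcgr4 (46.8), Fcgrt (41.7), Fcgr1 (29.0) and Fcer1a (4.72), where only Fcgr4 and Fcgrt overlapped. In TDE it was Fcer1g (1198), Fcgr2b (644), Fcgr3 (572), Fcgr4 (157), Fcgrt (48.9), Fcgr1 (36.4) and Fcer1a (0.614), and no neighbours overlapped. The inhibitory Fcgr2b therefore stood above the activating Fcgr3 in every TDE library and below it in every CTR and NE library. Fcgr2b shares sequence with Fcgr3 and overlaps Gm38204, as given above. This order, and the ratios to Fcgr2b below, may therefore depend on how shared reads were divided.

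**Figure D3:**
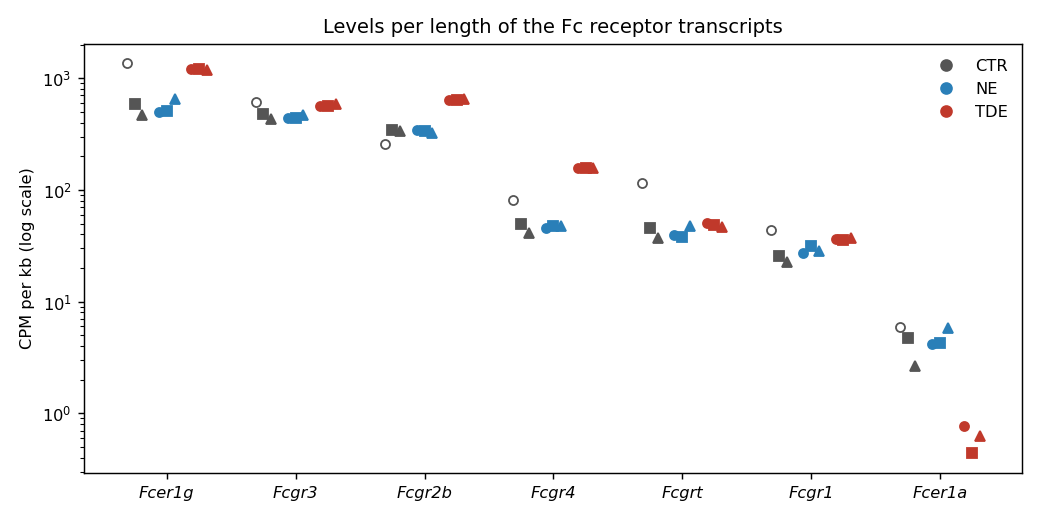
CPM per kilobase (log scale) of the 7 members in the 3 libraries of each group, with control replicate 1 as an open circle. Fcgr2b lay below Fcgr3 in CTR and NE (means of 313 and 336 against 503 and 448) and above it in TDE (644 against 572).

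The ratio of an activating receptor to Fcgr2b within a library needs no normalization between libraries. The log2 ratio of Fcgr3 reads to Fcgr2b reads was 1.0, 0.24 and 0.11 in CTR, 0.12, 0.16 and 0.28 in NE, and -0.40, -0.42 and -0.37 in TDE. All TDE libraries were negative and all others positive, with differences of -0.85 from CTR and -0.58 from NE (exact permutation test, two-sided, p = 0.1 each, the smallest that 3 against 3 libraries allow). Fcgr1 over Fcgr2b had log2 ratios of -2.69 ± 0.74 in CTR, -2.82 ± 0.13 in NE and -3.43 ± 0.02 in TDE (SD, n = 3 each; exact permutation p = 0.1 against either group). Without CTR_1 the difference of the Fcgr1 ratio from CTR shrank from -0.74 to -0.31, and that of the Fcgr3 ratio from -0.85 to -0.575. In both cases the activating receptor was a smaller multiple of the inhibitory one in every TDE library.

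Fcgr4 over Fcgr2b went the other way, at -2.83 ± 0.73 in CTR, -3.17 ± 0.09 in NE and -2.36 ± 0.01 in TDE (SD, n = 3 each). It was higher in every TDE library than in any NE library (difference 0.81, exact permutation p = 0.1), but overlapped with CTR (difference 0.47, exact permutation p = 0.4), where CTR_1 at -2.0 lay above TDE and the other 2 libraries at -3.11 and -3.37 below. Without CTR_1 the difference from CTR was 0.88. Of the 9 ratio tests none can reach 0.05, and the lowest adjusted p was 0.18.

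**Figure D4:**
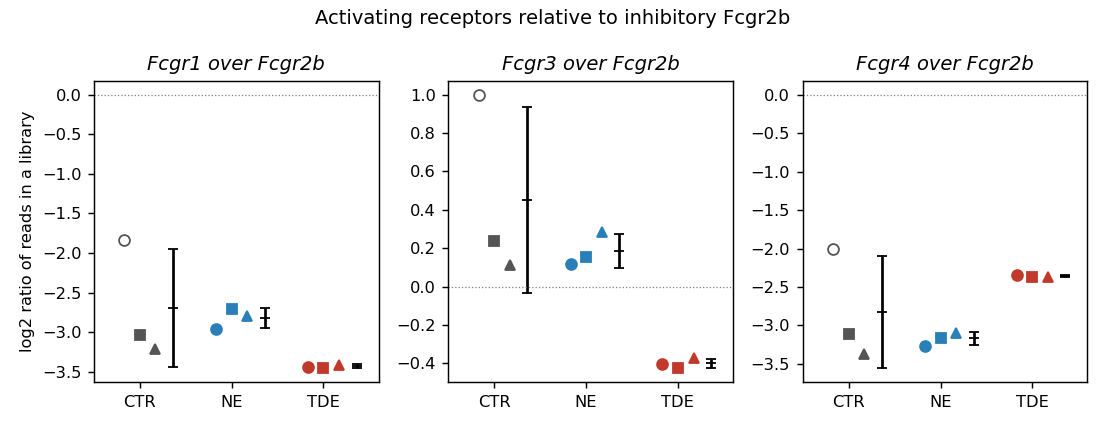
Log2 ratio of the reads of Fcgr1, Fcgr3 and Fcgr4 to those of Fcgr2b in each library, with the mean and SD of each group (n = 3); the dotted line marks equal reads and the open circle control replicate 1. The Fcgr3 ratio is below 0 in the 3 TDE libraries and above 0 in the other 6, and the Fcgr4 ratio of the TDE libraries lies between control replicate 1 and all remaining libraries.

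Fcer1a is a marker of mast cells and basophils, and most other tested markers of these cells fell with it. Of 11 such genes 8 were tested, and 7 were lower in TDE than in CTR by edgeR, beside 9.34% of all tested genes, with Kit (log2 fold change -1.14, adjusted p = 0.0966) the exception, which is called lower without CTR_1. With the replicate block 6 of the 8 were lower, where 8.55% of all tested genes were called. Mcpt8, a basophil protease, had 192, 46.9 and 35.2 CPM in CTR, 39.3, 45.9 and 62.1 CPM in NE and 7.32, 7.32 and 6.43 CPM in TDE (log2 fold change -3.70, SE 0.64, adjusted p = 0.00664 by edgeR). Cpa3, the mast cell carboxypeptidase, had 20.6, 23.3 and 20.4 CPM in CTR and 2.72, 3.60 and 3.76 CPM in TDE (log2 fold change -2.67, adjusted p = 8.7e-05 by edgeR). Ms4a2, the beta chain of the same IgE receptor, fell by 1.79 on the log2 scale (SE 0.20, adjusted p = 0.00095 by edgeR). Mcpt4 had no read in any library.

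The summed level of the 11 mast cell and basophil markers was 214 to 460 CPM in CTR, 226 to 299 CPM in NE and 67.2 to 73.2 CPM in TDE. Taken as a percentage of that sum, Fcer1a stood at 1.29, 1.80 and 1.25 in CTR, 1.83, 1.72 and 1.93 in NE and 1.13, 0.597 and 0.932 in TDE. Every TDE percentage was below any other, though TDE_1 at 1.13 lay near CTR_3 at 1.25. Markers of other cells moved as well. The sum of 8 eosinophil markers was 632 to 1717 CPM in CTR and 118 to 146 CPM in TDE. Of these, 8 of 8 were lower, as were 8 of 11 neutrophil markers, beside 9.34% of all tested genes. Without CTR_1, 10 of the neutrophil markers were lower and 1 higher, and with the replicate block 6 were lower. The dendritic cell sum was 3329 to 11357 CPM in CTR and 1666 to 1765 CPM in TDE, with 4 of 10 lower. Without CTR_1, 7 of these were lower and 1 higher, and with the replicate block 2 were lower. The macrophage sum was 4422 to 5350 CPM in CTR and 5638 to 6018 CPM in TDE, with Adgre1 (F4/80) higher by 2.56 on the log2 scale and 3 of 10 lower (7 without CTR_1, 0 with the replicate block). The median log2 fold change over the 10 macrophage markers was -0.57, so the sum and the median went opposite ways. The sum of 11 B, T and NK cell markers was 34.0 to 78.0 CPM in CTR and 27.7 to 28.8 CPM in TDE, with 5 of 7 tested lower. Without CTR_1, 6 of 8 tested were lower and 1 higher, and with the replicate block 2 were lower. Of all tested genes, 18.0% were lower and 16.4% higher without CTR_1, and 8.55% were called with the replicate block. The part of these cell types in the changes of the Fc receptors was not tested.

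**Figure D5:**
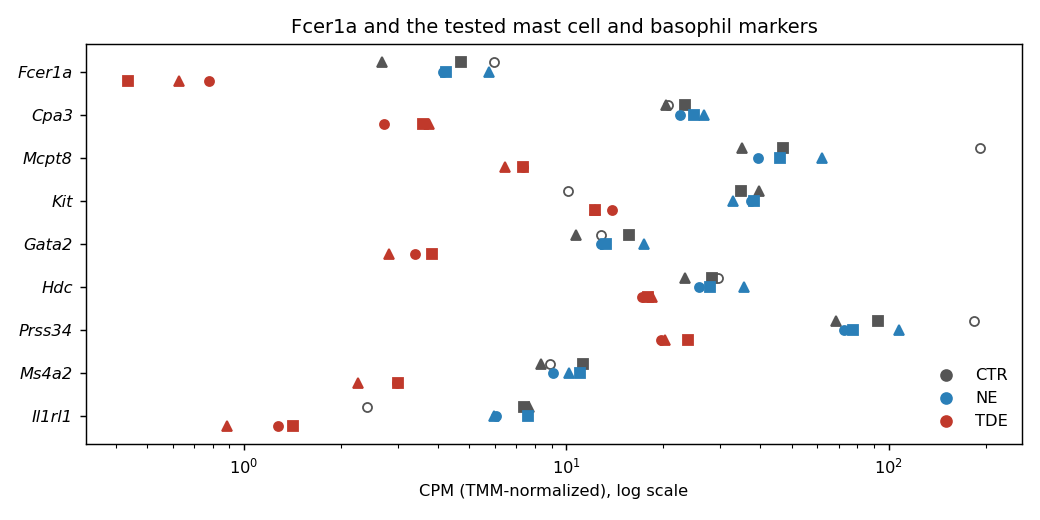
CPM (log scale) of Fcer1a and of the 8 tested mast cell and basophil markers in each library (circle, square and triangle for replicates 1 to 3; open circle, control replicate 1). All TDE libraries lie below all CTR and NE libraries for Fcer1a and for 7 of the 8 markers, and for Kit control replicate 1 lies below the TDE libraries.

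The promoters of the 3 called genes are given because these genes were called in every fit that tested them, 300 bases each from RefSeq on GRCm38.p6, from 250 bases before the start site to 50 after it. Searched on both strands were GAGGAA, the core of sites of the myeloid factor PU.1, GATAA, the core of GATA factor sites, and TTCNNNGAA, the interferon-gamma-activated site of STAT factors. The motifs do not overlap one another in these windows, and capitals mark matches, as written or in reverse complement. GAGGAA was found in Fcgr4 at -22, in Fcer1a at -216, and also in Fcgr1 and Fcgr3, against 28.1% of 32544 RefSeq promoters, counted from 0 at the first transcribed base. GATAA was found in Fcer1a at -92 and in Fcgr1, against 25.3% of promoters, and TTCNNNGAA only in Fcgr1 among the 7, against 8.33%. None of the 3 was found in the windows of Fcgr2b, Fcer1g and Fcgrt. Each window is that of a single start site per gene, and any other start site was not searched. The windows of Fcgr2b and Fcgr3 (chr1:171059354-171059653) lie inside the gene spans given above.
Fcgr4, chr1:171018676-171018975, plus strand: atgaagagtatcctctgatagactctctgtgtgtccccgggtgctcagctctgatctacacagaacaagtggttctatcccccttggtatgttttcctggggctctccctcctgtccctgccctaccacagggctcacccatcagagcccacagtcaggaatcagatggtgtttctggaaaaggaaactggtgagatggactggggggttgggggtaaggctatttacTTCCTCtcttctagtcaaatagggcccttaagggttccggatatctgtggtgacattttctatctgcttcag
Fcgr2b, chr1:170976022-170976321, minus strand: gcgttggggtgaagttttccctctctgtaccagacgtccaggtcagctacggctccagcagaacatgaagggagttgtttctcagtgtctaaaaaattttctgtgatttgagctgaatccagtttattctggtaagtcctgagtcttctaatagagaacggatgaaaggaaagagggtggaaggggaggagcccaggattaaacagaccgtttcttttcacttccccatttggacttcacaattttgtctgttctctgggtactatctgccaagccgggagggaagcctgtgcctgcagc
Fcer1a, chr1:173227180-173227479, minus strand: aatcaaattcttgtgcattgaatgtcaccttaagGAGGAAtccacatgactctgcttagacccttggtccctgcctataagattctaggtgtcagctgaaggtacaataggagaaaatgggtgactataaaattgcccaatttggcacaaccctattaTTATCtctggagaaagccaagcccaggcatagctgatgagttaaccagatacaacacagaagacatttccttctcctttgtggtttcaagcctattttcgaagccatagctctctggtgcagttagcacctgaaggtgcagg

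Genes that work with the Fc receptors were counted from lists without the 7 members. The lists were chosen with earlier results of these data known, so the shares called are a description only. Of 12 other Fc receptors and related genes 9 were tested, and 2 rose and 3 fell between CTR and TDE by edgeR (median log2 fold change -0.57, against -0.05 over all tested genes), so that 55.6% were called beside 16.9% of all tested genes (7.57% higher and 9.34% lower). The median rested on CTR_1, since without it the median was -0.11, against -0.02 over all tested genes. In that fit 2 rose and 4 fell (66.7%, beside 34.4% of tested genes). With the replicate block 4 were called (44.4%, beside 8.55%), and with single libraries left out the count ran from 4 to 6. Fcrl5, an Fc receptor-like protein that binds IgG, had 8.56, 3.88 and 2.62 CPM in CTR, 2.97 to 3.8 CPM in NE and 39.9, 32.5 and 36.6 CPM in TDE (log2 fold change 2.86, SE 0.39, adjusted p = 0.00254 by edgeR). The TDE libraries of Fcrl5 lay far above all others. Fcrlb, an intracellular relative, rose by 0.94 (adjusted p = 0.00404 by edgeR), and Fcmr, the IgM receptor, fell by 2.26 (adjusted p = 0.00226 by edgeR). The other gene that fell beside Fcmr and Ms4a2 was Fcrla, named after its values were seen, by 1.13 (adjusted p = 0.0449 by edgeR).

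Of 27 genes of ITAM signalling, 10 rose and 1 fell between CTR and TDE by edgeR, with a median log2 fold change of 0.40. These 11 were 40.7% of the list, beside 16.9% of all tested genes (7.57% higher and 9.34% lower). Lyn, the kinase that phosphorylates these motifs, had 169, 263 and 271 CPM in CTR, 279, 274 and 263 CPM in NE and 495, 483 and 497 CPM in TDE (log2 fold change 1.07, SE 0.19, adjusted p = 0.00707 by edgeR). Sos1, an exchange factor for Ras, rose by 1.95 (adjusted p = 0.007 by edgeR) and Pik3r5, a regulatory subunit of phosphoinositide 3-kinase gamma, by 0.90 (adjusted p = 0.00476 by edgeR). Lat2, a membrane adaptor of mast cells and B cells, fell by 1.01 (adjusted p = 0.0471 by edgeR). Against NE, 8 rose and 0 fell (median 0.33), or 29.6% beside 13.9% of all tested genes. The count against CTR changed with single libraries left out, as did that of all tested genes. Without CTR_1 it was 15, with 13 higher and 2 lower (55.6%, beside 34.4% of tested genes in that fit). It was 4 without TDE_1 or TDE_3, where 1109 and 1103 of all tested genes were called, against 2541 in the fit to 9 libraries. With the replicate block it was also 4, beside 8.55% of tested genes in the block fit. Against NE the count ran from 1 without TDE_1 or TDE_3 to 17 without CTR_1, with 13 higher and 4 lower (63.0%, beside 40.7%). Without TDE_1 and TDE_3, 1003 and 970 of all tested genes were called against NE, beside 2095 in the fit to 9 libraries.

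Among 9 inhibitory phosphatases and adaptors 1 fell and 0 rose between CTR and TDE (median 0.19), or 11.1% beside 16.9% of all tested genes. That gene was Dok2, an adaptor that recruits a Ras inhibitor, lower by 1.06 on the log2 scale (SE 0.19, adjusted p = 0.00817 by edgeR). Inpp5d, the phosphatase SHIP that the inhibitory motif of Fcgr2b recruits, had 193 ± 52.5 CPM in CTR and 201 ± 7.45 CPM in TDE (SD, n = 3), with a log2 fold change of 0.06 (SE 0.21, adjusted p = 0.845 by edgeR). Of 5 tested genes, the receptors that pair with the gamma chain and the related adaptor Tyrobp, 1 rose and 0 fell (median -0.61), or 20.0% beside the same 16.9%. The riser was Clec4e, the glycolipid receptor Mincle, at 168, 222 and 247 CPM in CTR and 473, 400 and 446 CPM in TDE (log2 fold change 1.05, adjusted p = 0.00516 by edgeR). Tyrobp itself had 1614, 597 and 466 CPM in CTR and 466, 461 and 468 CPM in TDE (log2 fold change -0.94, SE 0.42, adjusted p = 0.148 by edgeR), so that CTR_1 again stood apart. Between 1 and 3 of the 9 phosphatases and adaptors were called with single libraries left out. The 3 came without CTR_1 (33.3%, beside 34.4% of tested genes in that fit). For the gamma chain partners and Tyrobp the count also ran from 1 to 3. There the 3 came without CTR_3, where 3944 of all tested genes were called. Without CTR_1 the median of that list was -0.20, with 1 higher and 1 lower (40.0%, beside 34.4% of tested genes).

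Of 19 genes of phagocytic uptake and the oxidative burst, 3 rose and 0 fell between CTR and TDE (median 0.05), a share of 15.8% beside 16.9% of all tested genes, so the list did not stand above the background. The 3 were Rac2 (log2 fold change 0.93, adjusted p = 0.0293), a GTPase of the oxidase, Wasf2 (0.85, adjusted p = 0.0247), which drives actin branching, and Cybb (0.74, adjusted p = 0.0341), the catalytic subunit of the oxidase, all by edgeR. None of the 19 was called with the replicate block or without CTR_2, NE_2 or any 1 TDE library, and 5 were called without CTR_1, or 26.3% beside 34.4% of tested genes in that fit. In the KEGG map of Fc gamma receptor phagocytosis, as the deposited table lists it, 14 of 91 tested genes rose and 8 fell (median 0.02), and in that of Fc epsilon receptor signalling 11 of 70 rose and 10 fell (median 0.06), which is 24.2% and 30.0% called beside 16.9% of all tested genes. With single libraries left out, the calls ran from 10 (without TDE_1 or TDE_3) to 41 (without CTR_1) in the first map and from 11 to 32 in the second, at the same libraries, and with the replicate block they were 11 and 12. Without CTR_1 that was 45.1% and 45.7% beside 34.4% of tested genes, and with the block 12.1% and 17.1% beside 8.55%. The fits without TDE_1 and TDE_3 called 1109 and 1103 of all tested genes. Both maps share Lyn at their upper end, with Prkcb, a protein kinase C, higher by 1.47 (adjusted p = 0.00476 by edgeR) in the first and Map2k6, a MAP kinase kinase, higher by 1.03 (adjusted p = 0.00634 by edgeR) in the second. At their lower end both list antibody heavy chains, Igha (-3.93), Ighg1 (-3.28) and Ighg2b (-2.97). Whether the reads of these heavy chains can be told apart was not tested. No gene of any of these 7 lists was called between NE and CTR by edgeR.

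Across the 9 libraries, the transcripts most like each member were ranked by Pearson's r of log2 CPM among 10453 genes, as a description only, since the points share libraries and groups. Those nearest to Fcgr4 were Milr1 (r = 0.998), an inhibitory immunoglobulin-like receptor of mast cells and myeloid cells, and Fcrl5 (0.997). Fcgr2b was followed most closely by Ift80 and Aplp2 (both 0.999), Fcer1a by Pmp22 (0.995) and Gusb (0.991), and Fcer1g by Cryzl2 (0.998) and Lrrc25 (0.995). For Fcgr3 they were Agpat5 and Zfp467 (both 0.992), for Fcgrt Ube2s and Copz1 (both 0.998), and for Fcgr1 Rpn2 (0.957) and Cks2 (0.952).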

How the data were processed

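RNA from CTR, NE-treated and TDE-treated BMDCs (3 libraries each) was extracted with TRIzol and, per the paper's methods, primed with oligo(dT) and random primers. Per the submitters' processing notes the tools were TopHat2 2.1.1, DESeq2 1.24.0 and R 3.3.1, and the counting program, annotation and build are not given in the sources used here. The authors deposited estimated counts (expected counts) per gene without normalization, with gene lengths, KEGG names and group means that were not used. Of the 57238 entries, 5964 to 7750 per library were fractional.

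Counts were rounded to whole numbers, filtered with filterByExpr (15028 genes kept), scaled by TMM and fitted with 1 mean per group over 9 libraries by edgeR 4.0.16 in R 4.3.3 (quasi-likelihood F test, Benjamini-Hochberg over all tested genes, threshold 0.05). The SE is the log2 fold change divided by the square root of F. Counting error and the spread of libraries limit values near the floor of 3 reads. Ratios were compared by exact permutation tests, two-sided. Alternatives were DESeq2 1.42.0, limma 3.58.1 voom with sample quality weights, size factors by median ratio or from library totals alone, the filter left off or set to at least 10 counts in every library, the 6 libraries compared, and the replicate number as a block. Each library was also left out in turn. The code was tested on simulated data. Tables and plots used Python 3.11.15, pandas 2.3.3, scipy 1.17.1 and matplotlib 3.10.9.

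The members, lists and markers were chosen with earlier results of these data known. Named were all members, up to 3 genes at either end of each list (adjusted p under 0.05, mean of at least 5 CPM, no overlap between TDE and CTR libraries), and the 2 genes most like each member. Other genes were named as markers, as partners of a member (B2m, Inpp5d, Tyrobp) or as stated.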

Additional observations from a re-analysis of the deposited data

How the results depend on the processing

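Over the alternatives, Fcgr2b and Fcgr4 were called in 17 of 17 and Fcer1a in 16 of 16 in each comparison with TDE. Fcer1a was not tested with at least 10 counts in every library. The number of members called between TDE and CTR was 3 and became 6 with voom weights (52.5% of tested genes called), and with single libraries left out it ran from 3 to 6, where 6 came without CTR_1. Between TDE and NE it was 3 and became 6 in the fit to the 6 libraries compared (41.9% of tested genes called) and 7 with voom weights (55.3%), and ran from 3 to 6 with single libraries left out, again 6 without CTR_1. It was 4, with Fcer1g added, by DESeq2, with library totals alone and without CTR_3. Beside these counts of 4, the fit to 9 libraries called 2095 of all tested genes between TDE and NE. DESeq2 and the fit without CTR_3 called more genes than that, and library totals alone called fewer. The cause of these changes in the number of members called was not tested.

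Over all genes, 2541 were called between TDE and CTR, and 4018 with DESeq2, 1152 in the fit to 6 libraries, 1285 with the replicate block, 7886 with voom weights and 1103 to 5263 with single libraries left out. Between TDE and NE it was 2095, and 6072, 1175 and 8311 in the fit to 6 libraries, with the replicate block and with voom weights, and 970 to 6223 with single libraries left out. Between NE and CTR it was 0, and 6 with DESeq2, 18 with voom weights and 0 to 3 with single libraries left out.

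Differences that were not called turned direction as follows. Fcgrt, TDE against CTR, was 0.14 with voom weights and ran from -0.71 to 0.23 with single libraries left out. Between NE and CTR the log2 fold changes with single libraries left out ran from -0.25 to 0.28 for Fcgr1, from -0.022 to 0.17 for Fcgr2b, from -0.47 to 0.039 for Fcgr4, from -0.17 to 0.35 for Fcer1a, from -0.80 to 0.070 for Fcer1g and from -0.94 to 0.011 for Fcgrt. These turns came without CTR_1, except for Fcer1a, which turned without CTR_3 or NE_3. With voom weights Fcgr1 was 0.23, Fcgr2b -0.0025 and Fcer1a -0.0013, and with library totals alone Fcgr1 was 0.12.

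The replicate numbers were not shown to pair libraries. Deviations of same-numbered libraries correlated by -0.0562 to 0.0723 (TDE and CTR), -0.0712 to 0.0267 (TDE and NE) and -0.585 to 0.185 (NE and CTR), and 2, 1 and 0 of 6 libraries correlated best with their own number. With the replicate block 3, 3 and 0 members were called in the 3 comparisons. At 8 to 14 reads in the TDE libraries, the size of the fall of Fcer1a is the least precise of those of the 3 called members.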
